A study of Mus musculus with 137 samples.

Results

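The 10 genes described here act when unfolded protein builds up in the endoplasmic reticulum, and they were read in individual 2-cell embryos of the mouse. They are Dnajb9, Selenos, Hspa5, Hsp90b1, Pdia4, Xbp1, Atf4, Ddit3, Herpud1 and Wfs1, chosen by name, and they are 10 of 36113 genes obtained by summing transcripts by symbol. All 10 passed the filter on low counts and belong to the 14910 genes tested. The embryos were B6129F1 zygotes isolated 5 hours after fertilization and grown in KSOM without oil. From 6 hours on, the medium held either SR1848, which inhibits NR5A2 (a nuclear receptor), or the solvent DMSO. DMSO was used at 0.1% (29 libraries, 19 in experiment 1 and 10 in experiment 2) and SR1848 at 10 µM (41 libraries, 17 and 24). The third group received 10 µM SR1848 and NR5A2 mRNA at 500 ng/µl (67 libraries, 27 and 40), here called NR5A2 mRNA embryos. The labels do not say whether DMSO and SR1848 embryos were injected with a control. Each library is 1 embryo, read by SmartSeq2 with oligo-dT priming, so p-values measure the spread between embryos that may share parents.

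The endoplasmic reticulum folds secreted and membrane proteins. When folding lags, the sensors IRE1, PERK and ATF6 start the unfolded protein response, in which IRE1 activates the transcription factor XBP1, PERK raises translation of ATF4, and ATF6 is cut to release a transcription factor. Their targets include the chaperones BiP and GRP94, disulfide isomerases, and factors of endoplasmic reticulum-associated degradation, which return misfolded proteins to the cytosol for the proteasome. In the mouse, transcription from the embryo's own genome first becomes abundant at the 2-cell stage, while transcripts stored in the egg are being cleared, so an RNA level at this stage can hold both kinds.

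Sequence before the start of each gene was searched for sites of this response, because ATF6 and XBP1 are known to act through them. The windows were the 250 bases before the RefSeq start (GRCm38.p6), which were matched for all 10 genes, and both strands were read. The endoplasmic reticulum stress element (ERSE: CCAAT, any 9 bases, CCACG) was in 2 of the 10 windows and in 0.113% of 32851 RefSeq windows of this length. ERSE-II (ATTGG, any base, CCACG) was in 1 window and in 0.0304% of all. The ATF4 element TGATGCAA was in 1 window and in 0.791% of all. The unfolded protein response element core TGACGTGG (0.563% of all) and the NR5A2 motif TCAAGGTCA (0.387%) were in none of the 10. ATTGG of ERSE-II is CCAAT on the other strand, so the ERSE and ERSE-II share letters. The sequences below are shown because they hold these matches, in capitals, 5′ to 3′ on the gene's strand. Hsp90b1 (chr10:86705510-86705694, minus strand) has 2 ERSE matches, the first on the gene's strand and the second on the other. Herpud1 (chr8:94386179-94386428, plus strand) has the ATF4 element on the other strand and then ERSE-II. For Hspa5 (chr2:34772020-34772048, plus strand) the ERSE is shown with 5 bases on each side, since it lies 65 to 47 bases before the RefSeq start but inside an exon of a longer annotated transcript.
Hsp90b1: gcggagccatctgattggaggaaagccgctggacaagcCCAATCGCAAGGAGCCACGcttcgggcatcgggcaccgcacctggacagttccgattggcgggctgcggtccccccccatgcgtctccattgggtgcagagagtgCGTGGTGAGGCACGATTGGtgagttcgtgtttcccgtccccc
Herpud1: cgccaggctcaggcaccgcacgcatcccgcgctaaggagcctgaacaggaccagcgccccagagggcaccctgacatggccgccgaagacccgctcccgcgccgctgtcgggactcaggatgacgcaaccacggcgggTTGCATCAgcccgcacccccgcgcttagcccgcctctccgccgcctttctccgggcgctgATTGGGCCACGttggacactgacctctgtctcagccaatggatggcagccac
Hspa5: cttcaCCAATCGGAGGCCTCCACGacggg
With SR1848 Hspa5 and Hsp90b1 were lower, and Herpud1 was higher, a call that is lost in experiment 1 alone (0.82 log2, adjusted p = 0.326) and turns to -0.67 (adjusted p = 0.321) with libraries as labelled. In all, 45 genes had an ERSE or ERSE-II in this window, and 26 of them were tested. Of these 26, 10 were higher and 9 lower with SR1848 than with DMSO, beside 40.3% and 33.7% of all genes tested. With NR5A2 mRNA 2 were higher and 4 lower than with SR1848, beside 22.8% and 10.7% of all genes tested. This list was made after values had been seen, and 3 of the 10 genes are in it.

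Libraries held between 100883 and 9317721 counts (median 4694340). In 16 libraries, which form 2 runs of 8 consecutive numbers, the injected RNA went against the label. Libraries 1 to 8 of experiment 2 labelled DMSO held GFP at a median of 2491 CPM (counts per 1000000 counts of the library) and Nr5a2 at a median of 2414 CPM. Libraries 1 to 8 of experiment 2 labelled SR1848 with NR5A2 mRNA held at most 0.452 CPM of GFP. The comparisons below leave out these 16 libraries, so 121 remain (21 DMSO, 41 SR1848, 59 NR5A2 mRNA), and values with all libraries as labelled are given beside the results for the 10 genes. Among the 56 NR5A2 mRNA libraries that stayed and were not low, 7 held no more GFP (0 to 2.77 CPM) than the highest SR1848 library that was not low (3.23 CPM). In 6 of these 7, Nr5a2 was at 109 to 198 CPM, above the highest such SR1848 library (104 CPM). The remaining one, library 2 of experiment 1, had no GFP, 29.5 CPM of Nr5a2, 8354 detected genes and 0.619 CPM of the 2-cell markers, and it held no count of Selenos, Hsp90b1, Xbp1, Atf4, Ddit3 or Herpud1. All 7 stayed in the comparisons, and fits without the 7, and without library 2 alone, were added after the data were seen. A further 7 libraries had low totals or few detected genes (3 DMSO, 1 SR1848, 3 NR5A2 mRNA). They stayed in the fits, but ranges over embryos are given without them, over 18, 40 and 56 embryos. Only 2 DMSO libraries of experiment 2 remain. Of 7 markers of the 2-cell stage, 7 had a median over 1 CPM in DMSO, 6 in SR1848 and 7 in NR5A2 mRNA embryos, and medians of their sum were 121, 165 and 485 CPM. From DMSO to SR1848, the medians of Zscan4d (25.9 and 16.7 CPM), Zfp352 (56.7 and 29.7) and Tdpoz4 (8.02 and 0.237) fell. Those of Zscan4c (6.68 and 7.68 CPM), Tcstv1 (11.3 and 64.8), Tcstv3 (10.35 and 25.5) and Usp17lc (7.78 and 30.85) rose. The sum of 7 oocyte markers was lower with DMSO (693 to 1797 CPM, median 1130) than with SR1848 (2082 to 5821, median 3957), and with NR5A2 mRNA it ran from 661 to 6859 CPM (median 3192). Of these 7, Zp3 alone had its highest median with DMSO, at 79.1 CPM, beside 35.7 with SR1848 and 22.8 with NR5A2 mRNA. Of 12 cumulus and granulosa cell markers, 7 had a median of 0 in DMSO embryos, Amh, Foxl2 and Fshr among them. Their sum ran from 40.8 to 146 CPM with DMSO (median 92.6), from 1.38 to 224 with SR1848 (17.5) and from 4.21 to 60.8 with NR5A2 mRNA (24.0). Amhr2 held most of the DMSO sum, with medians of 87.1, 0.0977 and 6.01 CPM, while Col4a2 (0.471, 7.05 and 5.28 CPM) and Cyp19a1 (0.437, 2.74 and 2.56 CPM) were lowest with DMSO. The sum of 8 blood and epithelium markers had medians of 203, 54.2 and 282 CPM (ranges 101 to 319, 18.7 to 233 and 5.94 to 679). In it Hba-a2 went from 9.56 and 15.4 to 127 CPM with NR5A2 mRNA and Krt18 from 0.531 and 4.10 to 48.2 CPM, Epcam was at 172, 26.3 and 28.7 CPM, and Ptprc, Hbb-bs and Hbb-bt had medians of 0 in each group. The part of such cells, or of transcripts kept from the egg, in the results was not tested. Values are shares of a library, so a change in 1 gene's RNA and a change in total RNA per embryo cannot be told apart.

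Per transcript length, 3 of the 10 genes were among the most abundant transcripts of DMSO embryos. Selenos, a selenoprotein of the endoplasmic reticulum membrane that recruits the ATPase p97 for degradation, had a median of 919 TPM (transcripts per 1000000, from counts divided by transcript length; 699 to 1464 over 18 embryos). Dnajb9, the J-domain cochaperone ERdj4, followed at 773 TPM (568 to 1138), and Hspa5, the chaperone BiP, at 749 TPM (441 to 1017). Their medians stood above 99.0%, 98.8% and 98.8% of the genes tested. These neighbours overlapped: Selenos exceeded Dnajb9 in 14 of 18 embryos, and Dnajb9 exceeded Hspa5 in 11 of 18. Atf4 (221 TPM), Hsp90b1 (119 TPM), Pdia4 (73.3 TPM), Ddit3 (16.1 TPM), Xbp1 (6.17 TPM) and Wfs1 (1.93 TPM) came next. Hspa5 over Atf4, Hsp90b1 over Pdia4 and Pdia4 over Ddit3 held in 18 of 18 embryos each. Herpud1 had a median of 0.

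The order was another one in SR1848 embryos. There Hspa5 led at 144 TPM, followed by Atf4 (85.0), Hsp90b1 (57.7), Wfs1 (25.9) and Ddit3 (13.7). Dnajb9 was at 7.05 TPM and Selenos at 3.17 TPM, the sixth and the eighth of the 10. Wfs1 exceeded Ddit3 in 36 of 40 SR1848 embryos, but Dnajb9 exceeded Pdia4 in only 21 of 40. In NR5A2 mRNA embryos Hspa5 (245 TPM), Atf4 (124) and Hsp90b1 (70.3) again came first, and Herpud1 was at 11.8 TPM, above its median in the other 2 groups.

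**Figure D1:**
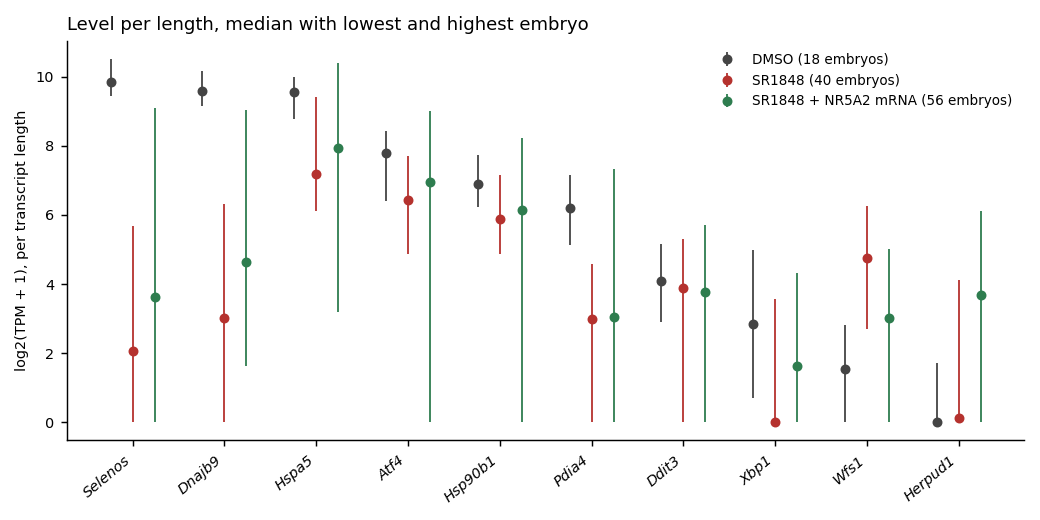
Level of each gene per transcript length, log2(TPM + 1), in DMSO (18 embryos), SR1848 (40) and NR5A2 mRNA embryos (56), without the low libraries. Points are medians and lines run from the lowest to the highest embryo; Selenos and Dnajb9 were at 919 and 773 TPM with DMSO and at 3.17 and 7.05 TPM with SR1848.

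SR1848 against DMSO asks what inhibitor treatment from the zygote on does to these transcripts. In the quasi-likelihood test of edgeR, adjusted over 14910 genes by Benjamini-Hochberg, 7 of the 10 were lower with SR1848 (Dnajb9, Selenos, Hspa5, Hsp90b1, Pdia4, Xbp1 and Atf4). A call for lower was made for 33.7% of all genes tested. Herpud1 and Wfs1 were higher, against 40.3% of all genes, and Ddit3 was not called. The 10 log2 fold changes had a median of -1.33, and those of all genes tested had a median of 0.28.

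The largest falls were in 2 genes that work on misfolded protein. Dnajb9 (chromosome 12, 44205559 to 44210326, minus strand, GRCm38) hands misfolded protein to degradation and holds IRE1 in check. Dnajb9 ran from 828 to 1587 CPM in DMSO embryos with a median of 1089. In SR1848 embryos it ran from 0 to 118 CPM with a median of 7.99. Without the low libraries, no embryo of one group reached the range of the other. With them, 2 DMSO libraries were at 0. How many of all genes tested are parted in this way was not counted, here or for the genes below. The fitted change of Dnajb9 was -5.91 on the log2 scale (SE 0.53, adjusted p = 7.55e-19), and -6.16 with all libraries as labelled. Selenos (chromosome 7, 66079649 to 66089405, plus strand) ran from 489 to 1027 CPM with DMSO (median 624) and from 0 to 32.2 CPM with SR1848 (median 1.72). In 8 of 40 SR1848 embryos no Selenos count was found, and again the groups did not overlap. Its change was -6.42 (SE 0.64, adjusted p = 2.61e-16), and -6.41 as labelled.

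Among the 3 folding proteins of the 10, Pdia4, a disulfide isomerase (chromosome 6, 47796141 to 47813430, minus strand), fell most. It ran from 37.5 to 171 CPM in DMSO embryos (median 96.0) and from 0 to 28.9 CPM in SR1848 embryos (median 8.44), with no overlap. The fit gave -2.88 (SE 0.45, adjusted p = 1.21e-08) and -2.70 as labelled. Hspa5 (chromosome 2, 34771970 to 34777547, plus strand) ran from 651 to 1514 CPM with DMSO (median 1126). With SR1848 it ran from 91.1 to 967 CPM (median 190), and 37 of 40 embryos were below the lowest DMSO embryo. The change of Hspa5 was -1.70 (SE 0.42, adjusted p = 1.99e-04), and -1.43 as labelled. Hsp90b1, the chaperone GRP94 (chromosome 10, 86690209 to 86705509, minus strand), had medians of 197 CPM (122 to 346) and 87.6 CPM (41.3 to 222). Its groups overlapped, with 28 of 40 SR1848 embryos below the lowest DMSO embryo and 39 of 40 below the DMSO median. Hsp90b1 changed by -0.83 (SE 0.34, adjusted p = 0.0220), and by -0.61 as labelled.

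The 3 transcription factors differed. Xbp1 (chromosome 11, 5520659 to 5525893, plus strand), whose mRNA IRE1 splices in the cytosol, was a low transcript, at 1.26 to 36.2 CPM in DMSO embryos with a median of 7.19. In SR1848 embryos its median was 0 and its highest value 11.7 CPM, and 21 of 40 embryos had no count. The Xbp1 change was -2.58 (SE 0.72, adjusted p = 8.42e-04), and -2.45 as labelled. The counts sum the annotated transcripts, and the splicing by IRE1 was not analysed here. Atf4 (chromosome 15, 80255184 to 80257541, plus strand), which drives genes of amino acid supply and redox defence, had medians of 216 CPM (83.0 to 325) and 77.7 CPM (27.5 to 198). All 40 SR1848 embryos were below the DMSO median of Atf4, but the ranges overlapped. Its change was -0.97 (SE 0.33, adjusted p = 0.00568), and -0.97 as labelled. Ddit3, the factor CHOP that is known for its link to cell death under lasting stress (chromosome 10, 127290774 to 127296288, plus strand), stayed low in both groups. Its medians were 7.81 CPM (3.30 to 17.5) with DMSO and 6.06 CPM (0 to 16.4) with SR1848. The fit gave -0.10 (SE 0.36, adjusted p = 0.820). As labelled it gave 0.09, and scaled on maternal transcripts -1.94 (adjusted p = 3.01e-07).

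Wfs1 went the other way from the chaperones. It encodes wolframin, a membrane protein of the endoplasmic reticulum involved in its calcium store and in holding back ATF6 (chromosome 5, 36966104 to 36989205, minus strand). In DMSO embryos Wfs1 ran from 0 to 10.4 CPM with a median of 3.70. In SR1848 embryos it ran from 11.5 to 147 CPM with a median of 50.1, so that all 40 lay above the highest DMSO embryo. The change was 3.98 (SE 0.48, adjusted p = 1.73e-12), and 3.08 as labelled. In its DMSO counts the transcript Wfs1-202 made up 30.6%, and in its SR1848 counts 9.35%, with Wfs1-201 nearly all of the rest. Herpud1 (chromosome 8, 94386438 to 94395377, plus strand), a membrane scaffold of the degradation complex, was at 0 in 13 of 18 DMSO embryos and reached 2.05 CPM. It was at 0 in 20 of 40 SR1848 embryos and reached 16.3 CPM, with 10 embryos above the highest DMSO embryo. Its change of 2.10 (SE 0.75, adjusted p = 0.00882) is not firm. In experiment 1 alone it was 0.82 (adjusted p = 0.326), as labelled -0.67 (adjusted p = 0.321), and both DMSO libraries left in experiment 2 were at 0.

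**Figure D2:**
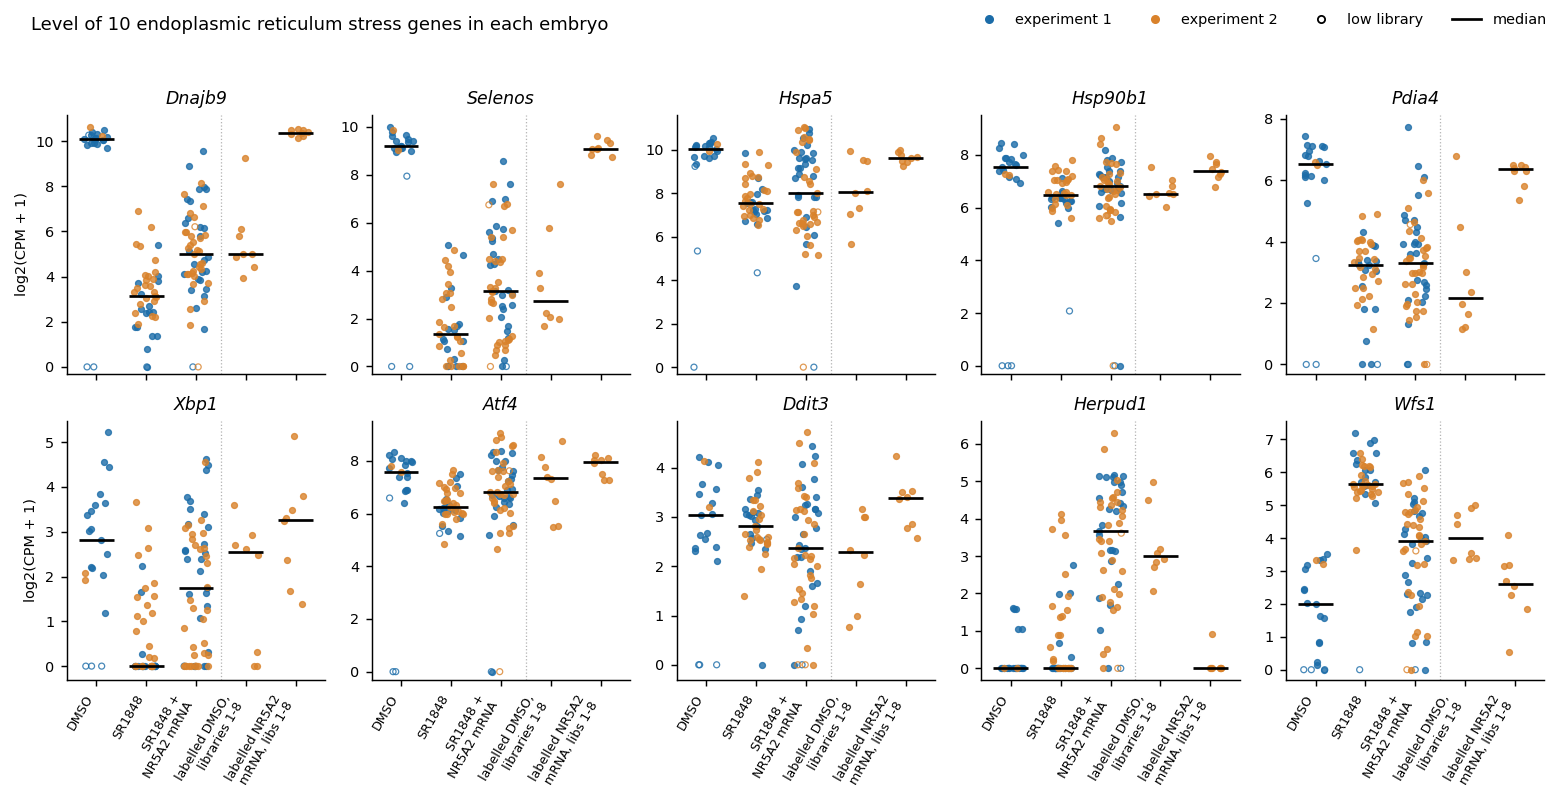
Level of each gene in each embryo, log2(CPM + 1), by group. Each point is 1 embryo, coloured by experiment, open points are low libraries and bars are medians; right of the dotted line are the 16 libraries left out of the fits. Dnajb9 lies between 828 and 1587 CPM in DMSO embryos without the low libraries and reaches at most 118 CPM in SR1848 embryos.

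These directions held under the other scalings, with the exceptions named. Scaling on maternal transcripts moved the median of all genes from 0.28 to -1.56. Under it Dnajb9, Selenos, Hspa5, Hsp90b1, Pdia4, Xbp1 and Atf4 stayed lower, Ddit3 was called lower as well, Wfs1 stayed higher and Herpud1 was no longer called (0.33, adjusted p = 0.714). Of all 14910 genes tested, 9188 were lower and 1632 higher under this scaling. In experiment 2 alone, with 2 DMSO libraries, 3 of the 10 were called lower (Dnajb9, Selenos and Pdia4) and none higher. Of all 18683 genes tested there, 3564 were lower and 2312 higher.

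NR5A2 mRNA against SR1848 asks whether supplying the receptor's mRNA changes these transcripts while the inhibitor is present. In the same fit, 6 of the 10 were higher with NR5A2 mRNA (Dnajb9, Selenos, Hspa5, Xbp1, Atf4 and Herpud1), against 22.8% of all genes tested. Wfs1 was lower, against 10.7% of all genes. Ddit3, Hsp90b1 and Pdia4 were not called. The median log2 fold change of the 10 was 0.98, and that of all genes tested 0.07. Both comparisons use the same SR1848 embryos, so their values for a gene are not independent.

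Dnajb9 ran from 2.16 to 746 CPM in NR5A2 mRNA embryos with a median of 32.6. Of 56 embryos 50 were above the SR1848 median, 10 were above the highest SR1848 embryo, and all 56 were below the lowest DMSO embryo. The change against SR1848 was 2.36 (SE 0.40, adjusted p = 9.74e-07), and 3.82 as labelled. Selenos ran from 0 to 378 CPM with a median of 7.80. For Selenos 43 of 56 embryos were above the SR1848 median, 15 above the highest SR1848 embryo, and none reached the lowest DMSO embryo. Its change was 2.52 (SE 0.49, adjusted p = 1.21e-05), and 3.94 as labelled. In the fit as labelled, the 8 libraries labelled NR5A2 mRNA that lack GFP held 1113 to 1477 CPM of Dnajb9 and 433 to 795 CPM of Selenos.

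Herpud1 had the highest fitted change with NR5A2 mRNA in the fit of 121 libraries, though as labelled Selenos and Dnajb9 exceeded it. Its level ran from 0 to 77.9 CPM with a median of 13.2, and 2 of 56 embryos were at 0. Of these embryos 25 were above the highest SR1848 embryo and 50 above the highest DMSO embryo. The change was 3.05 (SE 0.51, adjusted p = 4.57e-07), and 3.08 as labelled. Herpud1-205 made up 68.9% of its counts with NR5A2 mRNA, 53.0% with SR1848 and 31.1% with DMSO, where few counts were found. The other main transcript, Herpud1-201, made up 27.3%, 39.6% and 63.2%.

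The chaperone genes were widely spread among NR5A2 mRNA embryos, as were others of the 10. Hspa5 ran from 12.3 to 2135 CPM with a median of 360, and 12 of 56 embryos were above the highest SR1848 embryo while 10 were below the lowest. Its log2 CPM had an SD of 1.78 (n = 56), against 0.87 in SR1848 (n = 40) and 0.32 in DMSO embryos (n = 18). In the same 56 embryos the SD was higher for Selenos (2.47), Xbp1 (2.20), Wfs1 (1.93) and Herpud1 (1.88). It was 1.78 for Dnajb9, 1.76 for Pdia4, 1.60 for Atf4, 1.49 for Ddit3 and 1.43 for Hsp90b1. The spread of all genes tested was not worked out. The change of Hspa5 was 1.10 (SE 0.32, adjusted p = 0.00371), and 1.10 as labelled. The lowest Hspa5 value is that of library 2 of experiment 1. Hsp90b1 ran from 0 in that library, with the next at 44.0 CPM, to 533 CPM (median 114), and changed by 0.45 (SE 0.24, adjusted p = 0.148), and by 0.42 as labelled. Without the low libraries it changed by 0.44 and passed the test (adjusted p = 0.0173). Pdia4 ran from 0 to 212 CPM with a median of 9.10, beside 8.44 with SR1848. It changed by 0.82 (SE 0.34, adjusted p = 0.0508). Pdia4 passed without the low libraries (0.76, adjusted p = 0.0337), without library 2 of experiment 1 (0.83, adjusted p = 0.0447) and as labelled (1.31, adjusted p = 0.00157). Without the 7 libraries that had no more GFP than SR1848 libraries it changed by 0.52 and did not pass.

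Of the transcription factors, Xbp1 had a median of 2.85 CPM and a range from 0 to 23.7, with 11 of 56 embryos at 0. Its change was 1.88 (SE 0.53, adjusted p = 0.00302), and 2.04 as labelled. Atf4 ran from 0 in the same library, with the next at 24.3 CPM, to 537 CPM with a median of 116, and 16 of 56 embryos were above the highest SR1848 embryo. The Atf4 change was 0.86 (SE 0.24, adjusted p = 0.00310), and 0.85 as labelled. Fitted in experiment 1 alone Atf4 did not pass (0.85, adjusted p = 0.137), and in experiment 2 alone it did (0.83, adjusted p = 0.0224). Ddit3 ran from 0 to 25.3 CPM (median 4.29) and changed by -0.08 (SE 0.26, adjusted p = 0.854), and by -0.07 as labelled. Scaled on maternal transcripts the Ddit3 value was 0.44 (adjusted p = 0.149). Wfs1 fell: it ran from 0 to 65.9 CPM with a median of 14.7, and 23 of 56 embryos were below the lowest SR1848 embryo. Its change was -1.77 (SE 0.29, adjusted p = 3.57e-07), and -1.98 as labelled.

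The authors' deposited table of the same comparison gives values per transcript. It lists 2.14 log2 for Dnajb9-201 (adjusted p = 1.06e-09), 2.13 for Selenos-201 (adjusted p = 4.45e-05) and 1.56 for Xbp1-201 (adjusted p = 0.00119). The authors' deposited table has 2.78 for Herpud1-205 (adjusted p = 1.25e-04) and -1.90 for Wfs1-201 (adjusted p = 3.31e-06). Of 41 transcripts of the 10 genes in the authors' deposited table, 32 have an adjusted p. Among them 12 are called higher and 1 lower at 0.05. Those called higher include Atf4-201 (1.64e-05 log2), Hspa5-202 (1.12e-05) and Pdia4-201 (8.80e-06), whose listed changes are far smaller than those above. So for Hspa5, Atf4 and Pdia4 that table gives a call but almost no change. The share of all its transcripts that are called was not counted.

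**Figure D3:**
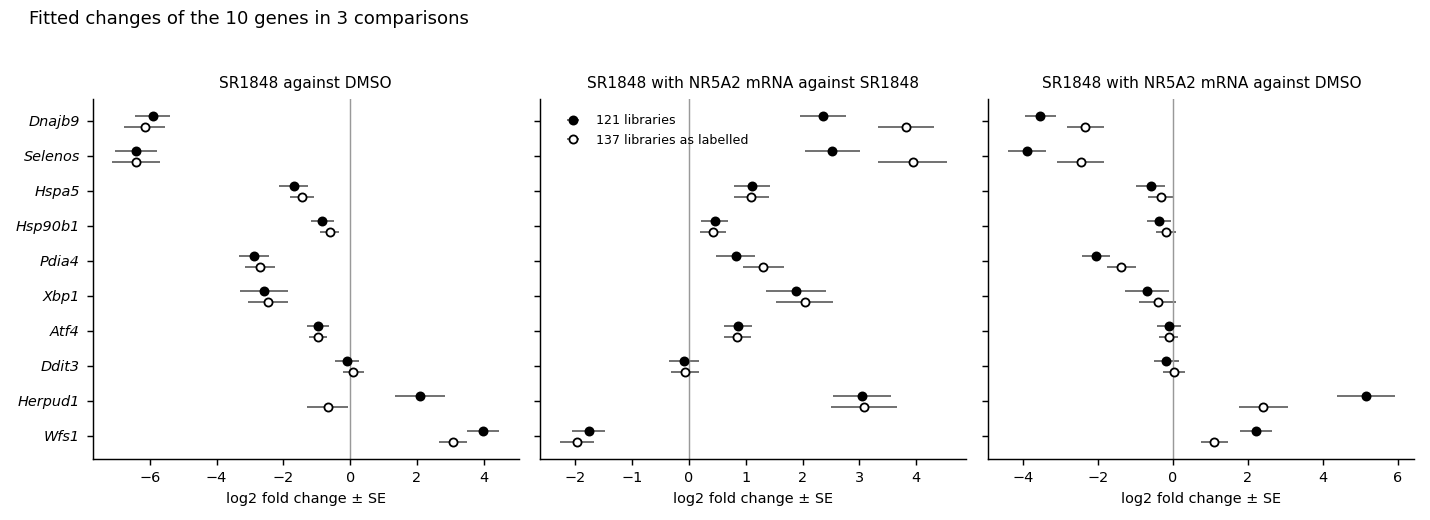
Log2 fold changes with SE for the 10 genes in 3 comparisons. Filled points are the fit of 121 libraries and open points all libraries as labelled; Herpud1 with SR1848 against DMSO changes sign, from 2.10 to -0.67, as does Ddit3 against DMSO, close to 0, from -0.10 to 0.09 with SR1848 and from -0.18 to 0.02 with NR5A2 mRNA.

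NR5A2 mRNA against DMSO compares embryos that have inhibitor and mRNA with solvent alone. Of the 10 genes 3 were lower (Dnajb9, Selenos and Pdia4), against 30.1% of all genes tested, and 2 were higher (Herpud1 and Wfs1), against 43.5%. Dnajb9 differed by -3.55 (SE 0.41, adjusted p = 3.53e-13), Selenos by -3.89 (SE 0.52, adjusted p = 5.76e-11) and Pdia4 by -2.06 (SE 0.38, adjusted p = 1.16e-06). Wfs1 differed by 2.21 (SE 0.43, adjusted p = 3.32e-06) and Herpud1 by 5.15 (SE 0.78, adjusted p = 4.66e-09). Hspa5 (-0.59, SE 0.39, adjusted p = 0.158), Hsp90b1 (-0.38, SE 0.31, adjusted p = 0.269), Xbp1 (-0.70, SE 0.58, adjusted p = 0.273), Atf4 (-0.11, SE 0.31, adjusted p = 0.762) and Ddit3 (-0.18, SE 0.34, adjusted p = 0.646) did not pass. Without the low libraries Hspa5 (-0.79, adjusted p = 0.0280) and Hsp90b1 (-0.58, adjusted p = 0.00953) passed as lower. As labelled the same 5 genes were called, with smaller values of -2.34 for Dnajb9, -2.47 for Selenos, -1.39 for Pdia4, 1.10 for Wfs1 and 2.41 for Herpud1.

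The response to NR5A2 mRNA was compared between the 2 experiments. The test of the difference, experiment 2 minus experiment 1, passed for 2 of the 10 genes, against 3.65% of all genes tested. For Dnajb9 the change was 3.83 (SE 0.62) in experiment 1 and 1.41 (SE 0.47) in experiment 2, a difference of -2.42 (SE 0.71, adjusted p = 0.0280 by edgeR). The SR1848 medians of Dnajb9 were 4.46 and 10.7 CPM in experiments 1 and 2. Its NR5A2 mRNA medians were 30.9 and 32.8 CPM, and its means 111 CPM (SD 171, n = 26) and 51.6 CPM (SD 61.6, n = 30). For Xbp1 the change was 3.92 (SE 0.83) and 0.85 (SE 0.60), a difference of -3.08 (SE 0.96, adjusted p = 0.0496 by edgeR). Of the SR1848 embryos, 13 of 16 in experiment 1 and 8 of 24 in experiment 2 had no Xbp1 count. Fitted in experiment 2 alone, Xbp1 did not pass (0.81, SE 0.63, adjusted p = 0.354). Without the 7 libraries that had no more GFP than SR1848 libraries, neither difference between experiments passed (Dnajb9 -2.02, adjusted p = 0.112; Xbp1 -3.0, adjusted p = 0.0756), and without the low libraries that of Xbp1 did not (-3.02, adjusted p = 0.0760).

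Hspa5 had medians of 573 CPM in NR5A2 mRNA and 154 CPM in SR1848 embryos of experiment 1. In experiment 2 its NR5A2 mRNA median, 141 CPM, was below its SR1848 median, 228 CPM, while the mean was 546 against 302 CPM. Its changes were 1.51 and 0.80 (difference -0.70, adjusted p = 0.708), and fitted in experiment 2 alone it did not pass (0.79, SE 0.42, adjusted p = 0.156). Herpud1 (difference -2.13, adjusted p = 0.232), Pdia4 (-1.59, adjusted p = 0.202), Selenos (-0.82, adjusted p = 0.780) and Wfs1 (0.94, adjusted p = 0.525) did not pass. For SR1848 against DMSO the difference between experiments passed for none of the 10 by edgeR, against 0.188% of all genes. The smallest p of the 10 was that of Herpud1 (difference 5.97, p = 0.0330, adjusted p = 0.835 by edgeR), with 2 DMSO libraries in experiment 2. The other tools were not run on this difference.

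**Figure D4:**
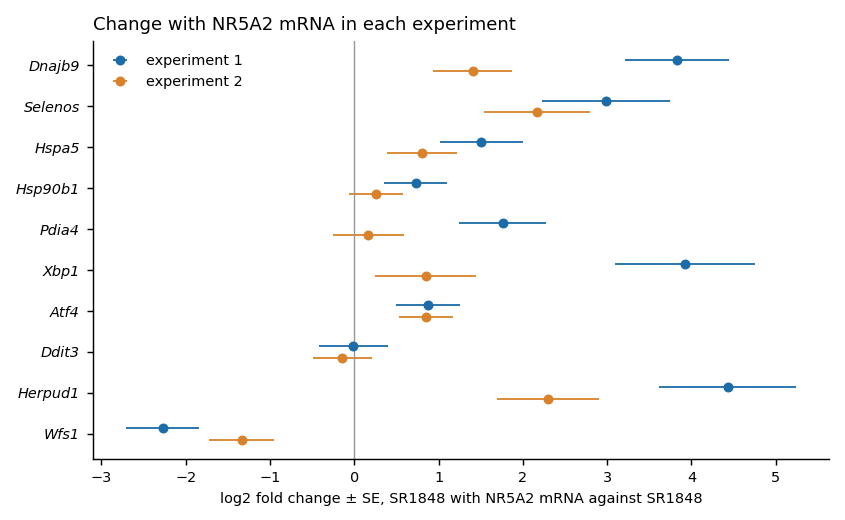
Log2 fold change with SE, NR5A2 mRNA against SR1848, fitted in each experiment. The points of Dnajb9 (3.83 and 1.41) and Xbp1 (3.92 and 0.85) are the 2 pairs whose difference passed the test in the fit of 121 libraries.

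The 16 libraries left out were read for the same genes. Among the 8 labelled DMSO, Dnajb9 ran from 14.4 to 614 CPM (median 31.2) and Herpud1 from 3.19 to 30.6 CPM (median 7.06). None of these 8 was within the range of the other DMSO embryos for Dnajb9, Selenos or Herpud1. All 8 were within the wide range of the NR5A2 mRNA embryos for each of the 10 genes. Within the SR1848 range were 8 of them for Ddit3, Xbp1 and Hsp90b1, and 7 for Dnajb9 and Pdia4. For Selenos, Hspa5 and Herpud1 there were 6, for Atf4 5 and for Wfs1 4. Among the 8 labelled NR5A2 mRNA, Dnajb9 had a median of 1326 CPM, Selenos 547 CPM, Pdia4 80.7 CPM and Wfs1 5.15 CPM. All 8 were within the DMSO range for Dnajb9, Pdia4, Xbp1, Atf4 and Herpud1, as were 6 for Selenos and 7 for Hspa5, Hsp90b1, Ddit3 and Wfs1. None of them was within the SR1848 range for Dnajb9, Selenos or Pdia4. These 8 were also all within the NR5A2 mRNA range for Hspa5, Hsp90b1, Pdia4, Atf4, Ddit3, Herpud1 and Wfs1. For Xbp1 7 were within it, and for Dnajb9 and Selenos none.

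Other genes of the endoplasmic reticulum, in 5 lists with 121 genes tested, included many lower with SR1848. Of 29 genes for folding and glycan trimming 19 were lower and 4 higher than with DMSO (median -1.003), and of 12 stress sensors and their partners 8 were lower and 1 higher (median -1.31). Among 30 degradation genes 11 were lower and 12 higher (median 0.00), which is close to the shares of all genes, 33.7% and 40.3%. Of 30 translocation and glycosylation genes 14 were lower and 7 higher (median -0.39), and of 20 tested genes of the integrated stress response 6 and 6 (median -0.44). In all, 58 of 121 were lower, 30 higher and 33 not called.

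Medians of the genes named next are over all embryos of the fit. Medians of the genes named next are over all embryos of the fit. In the folding list Dnajb11, a BiP cochaperone, had medians of 92.8 CPM with DMSO and 8.02 CPM with SR1848 (-3.45, SE 0.24, adjusted p = 1.08e-24). Pdia3, the disulfide isomerase that works with calnexin, had medians of 341 and 14.4 CPM (-4.15, SE 0.34). Mogs, the glucosidase that starts glycan trimming, was at 7.58 and 0 CPM (-7.41, SE 0.72). Among sensors, Eif2ak3, which encodes PERK, fell from 33.7 to 2.77 CPM (-3.21, SE 0.37), and Creb3, a membrane-bound transcription factor, from 18.2 to 0 CPM (-4.98, SE 0.61). Traf2, an adaptor of IRE1, fell from 78.4 to 15.0 CPM (-1.89, SE 0.31). In the integrated stress response, Eif2s1, the subunit of eIF2 that PERK phosphorylates, fell from 407 to 22.9 CPM (-3.69, SE 0.29). Ppp1r15b, the phosphatase partner that reverses this mark, fell from 181 to 2.27 CPM (-5.32, SE 0.57), and Sesn2, a stress-induced regulator of mTORC1, from 348 to 11.7 CPM (-4.31, SE 0.38).

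Of the degradation genes, Faf2, which tethers p97 at the membrane, fell from 125 to 1.84 CPM (-5.30, SE 0.41). Ngly1, the cytosolic enzyme that removes glycans, rose from 29.2 to 212 CPM (3.12, SE 0.32), and Os9, a lectin that selects substrates, rose from 21.8 to 106 CPM (2.52, SE 0.27). In the translocation list Ssr2, a subunit of the translocon-associated complex, fell from 221 to 7.89 CPM (-4.35, SE 0.34), Stt3a, a catalytic subunit of oligosaccharyltransferase, from 147 to 11.4 CPM (-3.70, SE 0.34), and Srp19, of the signal recognition particle, from 68.7 to 10.1 CPM (-2.56, SE 0.29).

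With NR5A2 mRNA 24 of these 121 genes were higher than with SR1848, 19 lower and 78 not called, beside 22.8% higher and 10.7% lower of all genes tested. Of 12 sensors and partners 5 were higher and 1 lower, of 20 integrated stress response genes 7 and 4, of 29 folding genes 6 and 1, of 30 degradation genes 3 and 7, and of 30 translocation genes 3 and 6. As labelled 33 of the 121 were higher and 17 lower, beside 4253 and 1962 of all 14526 genes tested in that fit. Without the low libraries 33 and 24 of 122 were, beside 4368 and 2425 of all 15124. Traf2 reached 54.9 CPM (2.01, SE 0.25) and Creb3 1.83 CPM (2.58, SE 0.48), both toward their DMSO medians of 78.4 and 18.2 CPM. Atf3, a stress-induced transcription factor, had medians of 0 with DMSO, 0.972 with SR1848 and 12.2 CPM with NR5A2 mRNA (2.61 against SR1848, SE 0.47). Sdf2l1, a partner of BiP, rose by 1.18 (SE 0.24), and Ppp1r15b by 2.11 (SE 0.42). Ngly1 (-0.99, SE 0.20), Os9 (-0.56, SE 0.18), Nploc4, a p97 cofactor (-0.95, SE 0.21), and Srpr, a receptor subunit for the signal recognition particle (-0.999, SE 0.23), fell. Srpr lost its call as labelled (-0.17, adjusted p = 0.698) and in experiment 1 alone (-1.01, adjusted p = 0.0713), Nploc4 in experiment 1 alone (-0.85, adjusted p = 0.0926) and with maternal scaling (-0.365, adjusted p = 0.136). Os9 lost it in experiment 2 alone (-0.36, adjusted p = 0.177), with maternal scaling (-0.093, adjusted p = 0.576) and with the replicate block (-0.54, adjusted p = 0.0666). Also called higher were Eif2ak3, Sesn2, Pdia3, Mogs, Faf2 and Srp19, which were lower with SR1848. Eif2ak3 lost its call in each experiment alone (0.86, adjusted p = 0.218, and 0.77, adjusted p = 0.0544). Sdf2l1, Sesn2, Mogs and Faf2 lost it in experiment 2 alone (0.62, 0.78, 1.71 and 0.70, adjusted p = 0.0571, 0.0526, 0.119 and 0.0992). Pdia3 lost it with the replicate block (0.56, adjusted p = 0.255), and Srp19 with protein-coding transcripts (0.004, adjusted p = 0.993). Eif2s1 (0.14), Dnajb11 (0.42), Ssr2 (0.48) and Stt3a (0.51) did not pass. As labelled these 4 were called higher, at 1.19, 1.15, 1.60 and 1.12, and without the low libraries Dnajb11 (0.43, adjusted p = 0.00384) and Ssr2 (0.46, adjusted p = 0.0477) were. Dnajb11 also passed without library 2 of experiment 1 (0.43, adjusted p = 0.0479). Rpn2, an oligosaccharyltransferase subunit, rose by 1.40 (SE 0.21), but with protein-coding transcripts alone its value was -0.05 (adjusted p = 0.916).

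**Figure D5:**
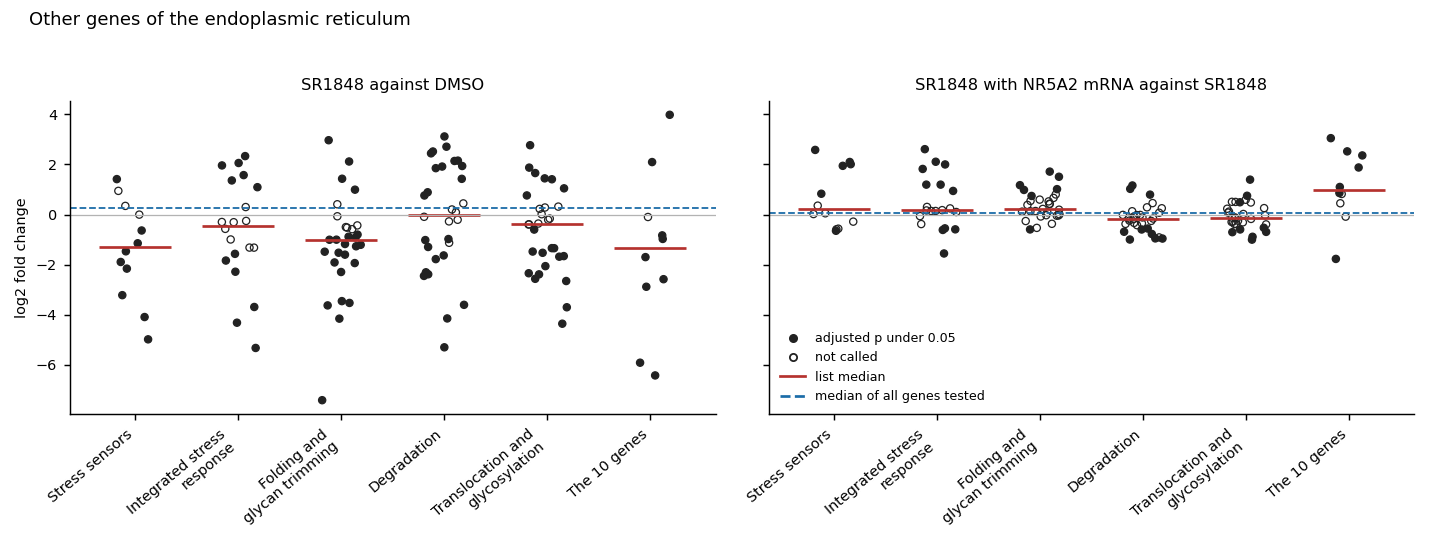
Log2 fold changes of genes in 5 lists and of the 10 genes, for SR1848 against DMSO and for NR5A2 mRNA against SR1848. Each point is a gene, filled where the adjusted p is under 0.05, red bars are list medians and the dashed line is the median of all genes tested (0.28 and 0.07); the folding list has 19 of 29 genes lower with SR1848.

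Across 114 embryos without low libraries, log2 CPM of Dnajb9 and Selenos went together (Pearson r = 0.89). Atf4 and Hsp90b1 had r = 0.81, and Hspa5 and Selenos r = 0.77. Wfs1 ran against them, at -0.71 with Dnajb9 and -0.66 with Selenos. Herpud1 and Ddit3 stood apart, with highest r of 0.32 and 0.47 among the 10, both with Atf4. Of all tested genes the most alike was Vmn1r46, a vomeronasal receptor gene, for Dnajb9 (r = 0.90) and Map1lc3b, the autophagy protein LC3B, for Selenos (r = 0.91). It was Cux2 for Hspa5 (0.89), Ndufb6 for Hsp90b1 (0.85), Mrpl18 for Atf4 (0.83), Anxa7 for Wfs1 (0.82), Kdm5b for Pdia4 (0.80), Gm4607 for Herpud1 (0.78), Atp1b2 for Xbp1 (0.68) and Rpl4 for Ddit3 (0.60). These r describe the embryos only, which share groups, experiments and library totals, and Rpl4 has near-identical copies that could divide its reads.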

How the data were processed

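Per the submitters' processing notes, bcl2fastq, Trim Galore 0.6.2, kallisto 0.46.1, R 3.5.1 and DESeq2 1.32.0 were used, with the builds mm10 and hg19 (what hg19 was for is not given). The authors deposited expected counts (kallisto estimates) for 119358 transcript entries, 26.3% of the values not whole (tolerance 1e-09). The authors' deposited table of NR5A2 mRNA against SR1848 holds, per the file headers, each transcript's log2 fold change, p-value and adjusted p-value.

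Columns were matched to samples by prefix, number and experiment, the prefixes C88 (SR1848 with NR5A2 mRNA) and ComS (SR1848) being read from the replicate numbers each held. Transcripts were summed by gene symbol, 117523 entries through the authors' deposited table and 139 through GENCODE M21; 1691 unpaired entries (0.557% of counts) and 5 kept apart, such as GFP (0.158%), stayed out of the genes. Ddit3 sums 2 gene identifiers, the second with 0.484% of its counts. The protocol keeps no strand and has no molecular identifiers. Sums were rounded and tested with edgeR 4.0.16 in R 4.3.3 (TMM, filterByExpr, quasi-likelihood, group and experiment as terms, Benjamini-Hochberg at 0.05). The fit was also run on simulated counts, for SR1848 against DMSO only, with few genes changed and no difference between experiments. That run cannot tell how the scaling does where most genes change. Fold changes are log2, levels CPM, or TPM from annotated lengths; log2 CPM has a prior count of 1. A library was low under 1 in 5 of the median total or 1 in 2 of the median of detected genes.

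The 10 genes, the lists, the 16 libraries left out and the tests were chosen with earlier results of these data known. Named genes beyond the 10 are, per list, the 3 with the smallest p for SR1848 against DMSO and the 2 for NR5A2 mRNA against SR1848, and for each of the 10 the gene with the highest r. Alternatives were all libraries, no low libraries, each experiment, 2 groups only, 3 scalings, no filter, DESeq2 1.42.0, protein-coding transcripts and a replicate block; experiment 1 without low libraries, the fits without NR5A2 mRNA libraries low in GFP or without library 2 of experiment 1, and the tests between experiments on fewer libraries were added after the data were seen.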

Additional observations from a re-analysis of the deposited data

Results flagged for a closer look

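The change with NR5A2 mRNA against SR1848 differed between the 2 experiments for Dnajb9 and Xbp1 by the interaction test of edgeR. Dnajb9 differed by -2.42 log2 (experiment 2 minus experiment 1, SE 0.71, adjusted p = 0.0280), and Xbp1 by -3.08 log2 (SE 0.96, adjusted p = 0.0496). The fitted changes were positive in both experiments, but Xbp1 did not pass in experiment 2 alone (0.81, adjusted p = 0.354). Neither difference passed without the 7 NR5A2 mRNA libraries that had no more GFP than SR1848 libraries (-2.02, adjusted p = 0.112, and -3.0, adjusted p = 0.0756). GFP, a sequence outside the genes tested, was found in the 8 experiment 2 libraries labelled DMSO that no comparison uses, at a median of 2491 CPM (47.4 to 7075), while the other 2 DMSO libraries of that experiment held 0.115 and 0.403 CPM.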

How the results depend on the processing

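Of 149, 150 and 150 alternative values of the 10 genes (SR1848 against DMSO, NR5A2 mRNA against SR1848, NR5A2 mRNA against DMSO), 134, 130 and 135 kept their direction and their side of the threshold. Dnajb9 and Selenos did so in every comparison and alternative run, and Wfs1 in the first 2 comparisons except experiment 2 alone (2.69, adjusted p = 0.0637). For SR1848 against DMSO, members called higher were 1 with all libraries as labelled, in experiment 1 alone, in experiment 1 without low libraries, with only the 2 groups, with maternal list scaling and with the replicate block, and 0 in experiment 2 alone, where 3 were called lower. Herpud1 turned to -0.67 as labelled and was not tested with only the 2 groups. Ddit3 turned to 0.095 as labelled and 0.26 with the replicate block. Atf3 turned to -0.99 as labelled and Nploc4 to -1.48 with maternal list scaling. Rpn2, 0.01 in the fit of 121 libraries, gave -0.75 as labelled, -0.11 without low libraries, -0.38 with relative log expression, -0.21 with total counts, -1.87 with maternal list scaling, -0.058 with no filter, -0.066 without NR5A2 mRNA library 2 of experiment 1 and -1.02 with protein-coding transcripts. All genes called higher numbered 2312 in experiment 2 alone and 1632 with maternal list scaling, and lower 9188 with that scaling and 7765 with no filter, beside 6005 and 5019. Higher calls made up 54.5% of calls, 15.1% with maternal list scaling.

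For NR5A2 mRNA against SR1848, beside 3402 higher and 1593 lower, experiment 1 alone gave 1826 and 694, maternal list scaling 7522 and 429, no filter 7569 and 2683, the replicate block 2051 and 764; lower calls numbered 2425 without low libraries and 2422 with DESeq2. Ddit3 turned to 0.030 in experiment 1 without low libraries and 0.44 with maternal list scaling. Under the replicate block Pdia4 turned to -0.015 and Mogs to -0.18, and Rpn2 turned to -0.054 with protein-coding transcripts. Eif2s1 turned to -0.086 without the 7 libraries with no more GFP than SR1848 libraries. For NR5A2 mRNA against DMSO, beside 6480 higher and 4493 lower, experiment 2 alone gave 2212 and 2969, maternal list scaling 2677 and 7222, and no filter 10259 higher. Members called higher were 1 in experiment 2 alone and with maternal list scaling. Members called lower were 5 without low libraries and with relative log expression and 8 with maternal list scaling. All genes called lower numbered 5226 of 15124 without low libraries and 5444 of 14910 with relative log expression. Ddit3 turned to 0.023 as labelled and Xbp1 to 0.17 in experiment 2 alone. The cause was not tested, except that experiment 2 alone holds 2 DMSO libraries.

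The labels' replicate numbers did not pair embryos: 65 same-numbered pairs had a mean residual r of 0.018, 8 of them over 0.1, beside 0.00952 over 1851 other pairs. Libraries were also set against each other group of their experiment, and in 9 of 130 such cases the same number correlated best. With the replicate block, Hspa5 (0.73) and Atf4 (0.58) were not called for NR5A2 mRNA against SR1848, nor Hsp90b1 (-0.81) for SR1848 against DMSO. Without low libraries the difference between experiments for Atf4 turned to 0.130 (SR1848 against DMSO) and 0.013 (NR5A2 mRNA against SR1848). Xbp1 and Herpud1 had no count in 21 and 20 of 40 SR1848 embryos, and the part of depth in this was not tested.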

Other observations

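Some transcripts with a retained intron took a larger share of a gene's counts outside the DMSO group. Xbp1-202 made up 0.820% of Xbp1 counts with DMSO, 8.86% with SR1848 and 3.87% with NR5A2 mRNA. Hsp90b1-202 made up 0.0525%, 1.34% and 1.71% of Hsp90b1 counts, and Ddit3-202 3.17%, 3.20% and 6.74% of Ddit3 counts. Others were lower with SR1848 than with DMSO: Atf4-203 (0.514%, 0.434% and 0.786%) and Hspa5-203 (0.0238%, 0.0204% and 0.0334%). These shares pool the embryos of a group, have no test, and were chosen after the values were seen. The Xbp1 share with SR1848 rests on few counts, and kallisto divides reads between overlapping transcripts.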
